A study of Mus musculus with 4 samples.

Results

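Cytosolic ribosomal protein genes encode the proteins of the large and the small subunit of the ribosome that translates nuclear mRNAs. They were taken by symbol: every probe set annotated to exactly 1 gene whose symbol has the Rpl, Rplp, Rps or Rpsa pattern, leaving out the Rps6k kinases and pseudogene symbols, with the probe set of highest mean signal for each gene. This gave 48 of the 18193 genes named on the array, 26 of the large subunit and 22 of the small subunit. They stood for 48 of the 79 symbols of this pattern that the annotation names. The other 31 are named only by probe sets that also carry other symbols, mostly those of gene models and pseudogenes, and were not analysed here as genes.

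Keratinocytes, the main epithelial cells of the skin surface, were grown as primary cultures from newborn mice of the C57BL/6 strain, labelled p38a-KO or WT, and p38a is the stress-activated MAP kinase p38alpha encoded by Mapk14. The 4 groups were p38a-KO-labelled cells 4 h after ultraviolet B (UVB) at 75 mJ/cm2, unirradiated p38a-KO-labelled cells, WT cells 4 h after the same UVB dose, and unirradiated WT cells. Each group has 1 Affymetrix expression array, so a pairwise difference has no replicate check and no test, and precision is limited throughout by having only 4 arrays. The labels name no mock-treated culture at 4 h, and they give neither the deleted part of Mapk14, nor the promoter behind any deletion, nor how many animals a culture came from.

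Most ribosomal proteins are needed in equal numbers, and their mRNAs are among the most abundant and long-lived of a growing cell. Many of these mRNAs begin with a terminal oligopyrimidine (TOP) tract, a C followed by a run of C and T (U in the RNA), through which the mTOR pathway and the RNA-binding protein Larp1 set their translation. Some ribosomal proteins also act away from the ribosome, and the free large-subunit proteins Rpl5 and Rpl11 can bind Mdm2, the ubiquitin ligase of p53. UVB damages DNA and activates p53 and p38 in keratinocytes.

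The sequence around the transcription start was looked at first, because the members were chosen by name alone and the TOP tract is their known shared feature. RefSeq promoter windows of GRCm38.p6, from 250 bases before to 50 after an annotated start, were found by symbol for 42 of the 48 members. A run of at least 8 bases that are each C or T, on the gene's strand and inside the 100 bases centred on the start, was present for 36 of 42 members (85.7%), against 36.7% of 9220 tested genes with a window. A C at the annotated start itself, followed by at least 4 bases of C or T, was present for 8 of 42 members (19%), against 3.05% of those genes. The motif CCGGAAG, the core bound by ETS-family factors, was present on either strand for 20 of 42 members (47.6%), against 20.4%. The motif AAGATGG, part of the site of the factor YY1, was present on either strand for 8 members (19%), against 8.36%. The box TATAAA lay in the 60 bases before the start of 1 member (2.38%), against 2.16%. Read on the opposite strand, CCGGAAG begins with C and T letters that can overlap the run, and a match describes letters, not a bound site.

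Windows of 30 bases centred on the annotated start are printed below in the gene's direction, 5′ to 3′, with the longest run of C and T of at least 5 bases in capitals. The first 4 show the tract in members that passed no UVB test as deposited, from both subunits and the stalk, and the other 6 are the members past the UVB test described further on. All are RefSeq sequences of GRCm38.p6.
Rps10 (chr17:27635230-27635259, minus strand): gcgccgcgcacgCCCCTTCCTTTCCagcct
Rpl35 (chr2:39005117-39005146, minus strand): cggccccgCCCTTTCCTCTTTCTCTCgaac
Rplp2 (chr7:141447636-141447665, plus strand): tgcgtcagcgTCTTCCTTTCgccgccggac
Rps6 (chr4:86857353-86857382, minus strand): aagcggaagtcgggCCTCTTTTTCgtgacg
Rps27l (chr9:66946071-66946100, plus strand): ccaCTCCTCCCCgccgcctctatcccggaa
Rpl27a (chr7:109519180-109519209, plus strand): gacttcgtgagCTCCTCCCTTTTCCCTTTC
Rps25 (chr9:44407699-44407728, plus strand): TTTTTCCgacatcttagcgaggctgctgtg
Rpl12 (chr2:32961697-32961726, plus strand): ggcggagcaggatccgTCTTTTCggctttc
Rpl39 (chrX:37085208-37085237, minus strand): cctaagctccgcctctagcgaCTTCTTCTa
Rpl7l1 (chr17:46782642-46782671, minus strand): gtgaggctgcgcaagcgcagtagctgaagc
The run spans the annotated start in Rps10, Rpl35, Rplp2, Rps6 and Rpl27a, lies upstream of it in Rps27l and Rps25, and begins downstream in Rpl12 and Rpl39. In Rpl7l1 no run of 5 bases is in this window. Rps27l has 2 annotated starts, of which the more upstream is shown. Among the tested genes, the 3383 with a run of 8 or more had a median UVB effect of -0.76 on the log2 scale and the 5837 without one -0.75, nearly the same value.

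The labelled cell type was checked against its markers, and the targeted gene was read on every array. All 10 keratinocyte markers had mean signal above the floor of 24.9 units, the median over probe sets to which lower values were raised. Summed fibroblast markers read 3524 units in irradiated and 5195 in unirradiated p38a-KO-labelled cells, against 2022 and 2669 units in irradiated and unirradiated WT cells. Summed melanocyte markers read 5536 and 8196 units in the irradiated and unirradiated p38a-KO-labelled cells, against 4738 and 5863 in the corresponding WT cells, and their part in the results was not tested. Of 4 endothelial markers 0, and of 5 leukocyte markers 1, reached the floor. Mapk14 read 646.8 and 1449 units in irradiated and unirradiated p38a-KO-labelled cells, against 292.5 and 985.4 units in irradiated and unirradiated WT cells. It was therefore not lower under the KO label, and a probe set outside the deleted part cannot check the genotype, so every genotype direction below rests on the label.

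The members fell into 2 ranges of mean signal, with none between 1605 units (Rps4l) and 6268 units (Rps27l). For 35 members, 18 of the large and 17 of the small subunit, the mean signal was at or above 5000 units, a boundary set in the gap after the values were seen. On the array of irradiated p38a-KO-labelled cells these 35 read from 6354 to 15107 units with a median of 11471, and on that of unirradiated p38a-KO-labelled cells from 5752 to 15121 with a median of 11306. On the irradiated WT array they read from 7215 to 14503 units with a median of 11202, and on the unirradiated WT array from 5613 to 16137 with a median of 11717. The same array's brightest probe set read 15500, 15210, 15368 and 16137 units in that order of arrays, so these members lie near the top of the measured range, where differences can be compressed. The remaining 13 members had medians of 175.3, 289.7, 155.8 and 260.2 units on the same arrays. Signal from a whole culture cannot tell fewer transcribing cells from less RNA in each cell.

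**Figure D1:**
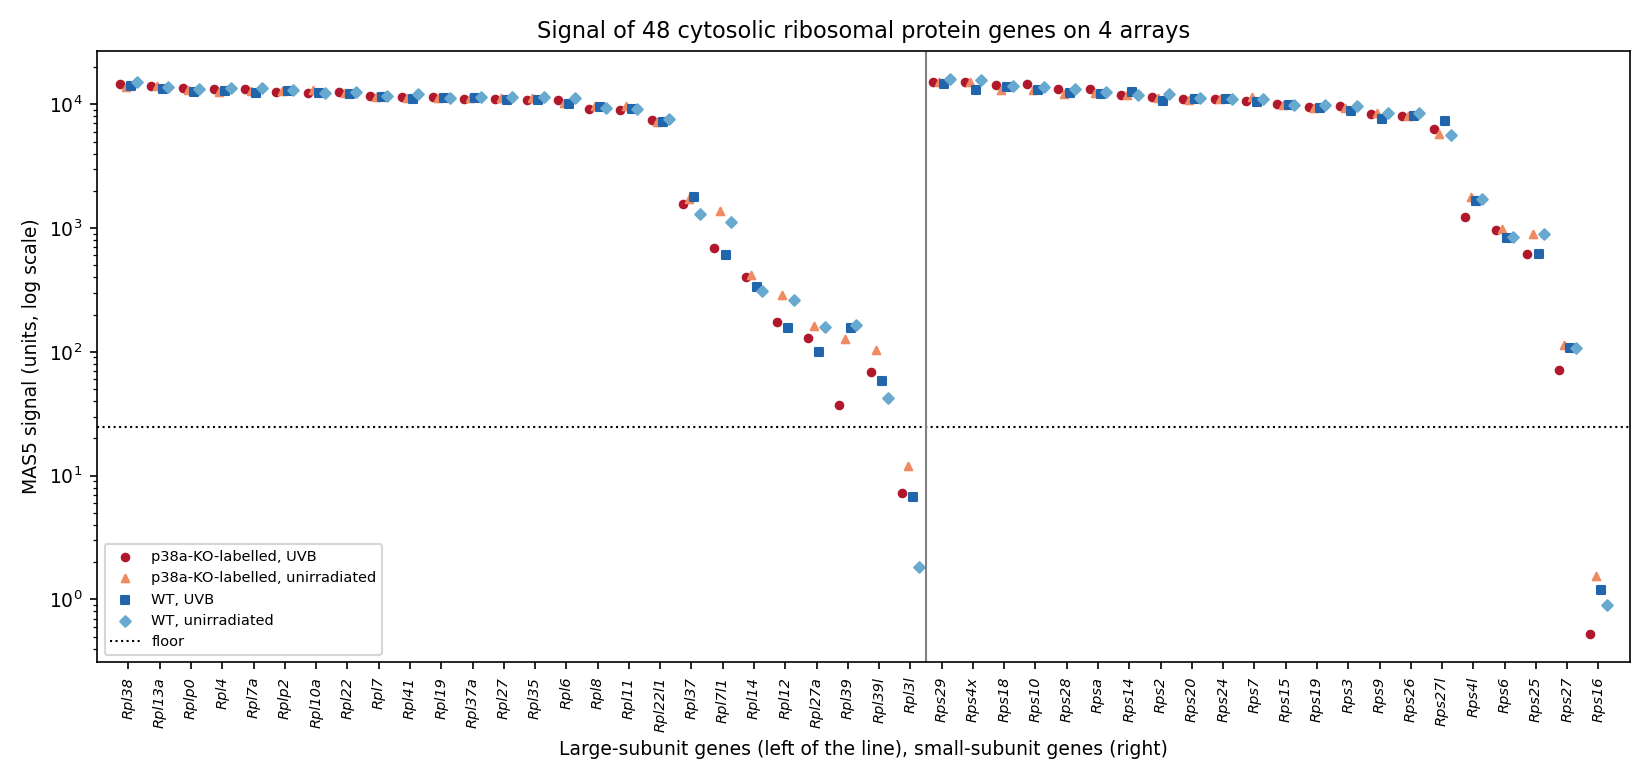
MAS5 signal on a log axis for each of the 48 genes on the 4 arrays, with large-subunit genes left of the vertical line, small-subunit genes right of it, and genes ordered by mean signal. The 35 genes at or above 5000 units have nearly coincident points, the 13 dimmer ones spread apart, and Rpl3l and Rps16 lie below the dotted floor of 24.9 units.

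For most of the 13 dim members, the low value belongs to the probe set kept by the symbol rule. For 9 of the 13 (Rpl12, Rpl14, Rpl27a, Rpl37, Rpl39, Rps16, Rps25, Rps27 and Rps6), the annotation also places the symbol on a probe set shared with other symbols, and that probe set was brighter by 7.77-fold to 12919-fold. The dim values of these 9 describe the kept probe set alone. The other 4, Rpl39l, Rpl3l, Rpl7l1 and Rps4l, are paralogs of ribosomal protein genes and have no such second probe set, so whether their low values reflect the probe set or the mRNA was not tested. Rpl3l, a form of Rpl3 known from heart and skeletal muscle, averaged 6.97 units and Rps16 1.03 units, both below the floor. These 2 were not tested, which left 46 members among 11379 tested genes.

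The first question was whether the ribosomal protein genes shared the loss of signal that most genes had 4 h after UVB. Bright and dim members had different medians in p38a-KO-labelled cells but nearly the same median in WT cells. As deposited, the 35 bright members had small differences on probe sets near the top of the measured range, where a loss could be compressed, so these values do not show that their mRNA levels were stable. Their median UVB difference was 0.03 on the log2 scale in p38a-KO-labelled cells, with a range of -0.11 to 0.15, and -0.06 in WT cells, with a range of -0.27 to 0.39. The 11 tested dim members had a median of -0.54 in p38a-KO-labelled cells, with 11 of 11 below 0, and of -0.06 in WT cells, with 7 of 11 below 0. The median of all tested genes, most of them far dimmer than the bright members, was -0.82 in p38a-KO-labelled cells and -0.70 in WT cells. None of the 35 was 2-fold lower in either genotype, and of the 46 tested members 1 was 2-fold lower in p38a-KO-labelled cells, where 39.3% of all tested genes were. In WT cells 0 of 46 were 2-fold lower, where 34.8% of tested genes were, and 0 were 2-fold higher in either genotype, where 0.167% in p38a-KO-labelled cells and 0.58% in WT cells were.

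The small differences of the bright members depend on the scaling. They were also small after quantile normalization, but not after centring each array on its median over probe sets with mean signal at the floor or above. Over all non-control probe sets, the array median was 18.7 and 34.5 units in irradiated and unirradiated p38a-KO-labelled cells. In irradiated and unirradiated WT cells it was 18.7 and 30.3 units. Quantile normalization gave the bright members medians of 0.03 in p38a-KO-labelled and 0.04 in WT cells, with medians of 0.06 and 0.05 for all tested genes. For the 11 dim members the medians were then 0.43 and 0.57. Median centring gave 1.16 and 1.005 for the bright members against 0.28 and 0.33 for all tested genes, so the bright members then stood higher after UVB. Leaving out probe sets marked as sharing sequence removed the kept ones of 31 bright members, so most members still tested were read by dim probe sets. These members had a median of -0.51 in p38a-KO-labelled and -0.09 in WT cells, against -0.85 and -0.74 for all genes then tested. That median does not describe the bright members. Rpl19, Rpl27, Rplp0 and Rpsa, bright members whose kept probe sets stayed, had 0.03, -0.02, 0.04 and 0.11 in p38a-KO-labelled cells. In WT cells they had -0.01, -0.09, -0.09 and -0.06. The bright members' position relative to the median gene changed with scaling: above it as deposited and after centring, slightly below it after quantile normalization.

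Other bright genes also had medians near 0 as deposited. The 156 other genes at or above 5000 units had a median UVB difference of -0.11 in p38a-KO-labelled and -0.11 in WT cells, and 3 of them were 2-fold lower in each genotype. Their spread was wider, with a standard deviation over genes of 0.30 and 0.29, against 0.07 and 0.10 for the bright members. The groups were not matched for signal, and no spread was taken at matched signal. Between 5000 and 8000 units lay 188 probe sets of other kinds and 9 member probe sets, against 89 and 57 above 8000 units. By probe set, the 57 member probe sets above 8000 units had medians of 0.02 and -0.06 in p38a-KO-labelled and WT cells, and the 89 probe sets of other kinds above 8000 units, naming no ribosomal protein gene, had -0.01 and -0.10. Probe sets above 8000 units that name a ribosomal protein gene together with other symbols numbered 72, with medians of 0.01 and -0.08.

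**Figure D2:**
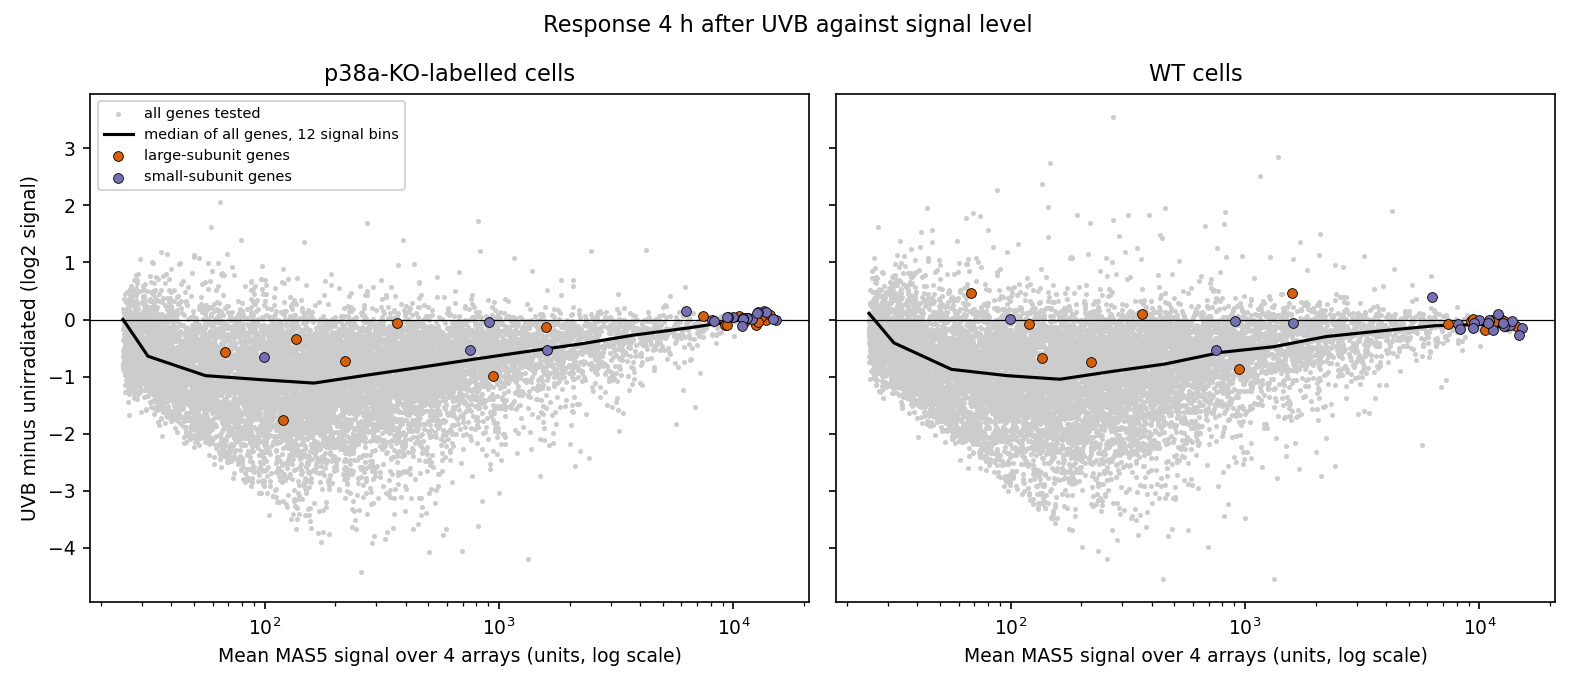
UVB minus unirradiated log2 signal against mean signal on a log axis, for p38a-KO-labelled cells at left and WT cells at right, with all 11379 tested genes in grey and their median in 12 signal bins as a line. The line rises towards 0 at the bright end, where 35 of the 46 tested ribosomal protein genes lie, and the dim ones range from -1.76 to -0.04 at left and from -0.87 to 0.47 at right.

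Within the bright group the medians of the subunits were close, as deposited. Large-subunit members had a median UVB difference of 0.01 in p38a-KO-labelled cells and -0.07 in WT cells, and small-subunit members 0.04 and -0.06. Rplp0, the base of the ribosomal stalk that recruits elongation factors, read 13454 and 13042 units in irradiated and unirradiated p38a-KO-labelled cells, against 12501 and 13289 units in the corresponding WT cells. Rplp2, a protein of the same stalk, read 12561 and 12904 units in p38a-KO-labelled cells after UVB and without it, against 12751 and 12944 in WT cells. Both stalk genes differed by less than 0.1 on the log2 scale between irradiated and unirradiated cells of either genotype.

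Other members have known roles away from the ribosome. Rpl11, which can bind Mdm2, read 9013 and 9617 units in irradiated and unirradiated p38a-KO-labelled cells, against 9080 and 9242 units in irradiated and unirradiated WT cells. Rps7, also known to bind Mdm2, read 10718 and 11541 units in p38a-KO-labelled cells after and without UVB, against 10516 and 10944 in WT cells. Rps3, which lines the entry of the mRNA channel and has also been described as a DNA repair nuclease, read 9640 and 9305 units in p38a-KO-labelled cells, irradiated and unirradiated, against 8758 and 9758 in WT cells. Each of these 3 passed no test of irradiation or genotype as deposited.

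Rpsa, whose protein is also known as a laminin receptor precursor, read 13332 and 12337 units in irradiated and unirradiated p38a-KO-labelled cells, against 12044 and 12565 in WT cells. Rpl13a, which in human myeloid cells can leave the ribosome to silence inflammatory mRNAs, read 13965 and 14113 units in p38a-KO-labelled cells after and without UVB, against 13401 and 13859 in WT cells. Rps6, the target of the S6 kinases, was read only by a dim probe set, with 960.4 and 986.4 units in p38a-KO-labelled cells after and without UVB, against 834.5 and 850.3 in WT cells. None of these 3 passed the tests as deposited, and Rps6 differed between irradiated and unirradiated cells by -0.04 and -0.03 on the log2 scale in the p38a-KO-labelled and WT cells.

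UVB was tested over both genotypes with an additive limma model of irradiation and genotype on all 11379 genes, which leaves 1 residual degree of freedom, the disagreement between the 2 responses. What its p-values weigh is that disagreement, shared through the intensity trend with other genes, and not how far repeated cultures would differ. In this test 5 of 46 members fell and 1 rose at an adjusted p under 0.05, where 69.4% of all tested genes fell and 0.703% rose. The 5 that fell, Rpl7l1, Rpl39, Rpl12, Rps25 and Rpl27a, are dim members, and the 1 that rose, Rps27l, is bright. After quantile normalization 1 member fell and 7 rose, where 20.1% of tested genes fell and 20.3% rose, and after median centring 0 fell and 43 rose, where 14.8% fell and 36.4% rose. The 7 that rose after quantile normalization were Rps27l and the dim Rpl14, Rpl27a, Rpl37, Rpl39l, Rps27 and Rps6, and the 1 that fell was Rpl7l1. Rps27l was the only member called in the same direction as deposited and under both other scalings. With median centring all 35 bright members rose, so that call does not set Rps27l apart.

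**Figure D3:**
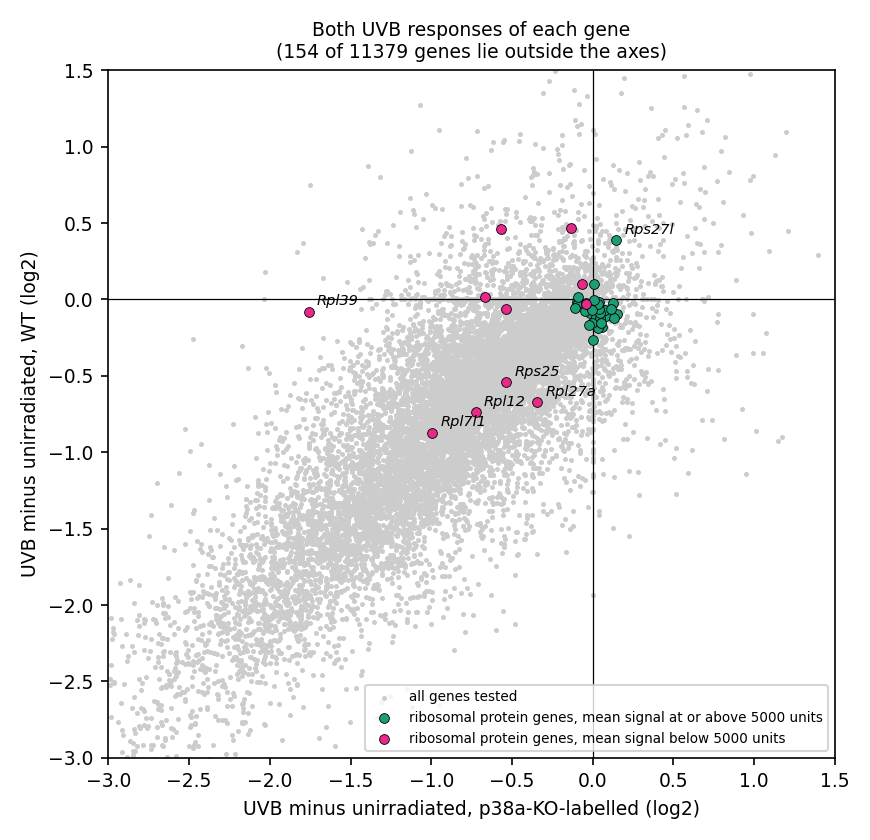
UVB response in p38a-KO-labelled cells on the x axis and in WT cells on the y axis, in log2 signal, with tested genes in grey and the 46 tested ribosomal protein genes in colour; 154 of 11379 genes lie outside the axes. The bright members cluster at the origin, Rps27l lies above them at 0.14 and 0.39, and the named dim members lie to the left and below.

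Rps27l, a close paralog of Rps27 and a known p53 target gene in human cells, read 6354 and 5752 units in irradiated and unirradiated p38a-KO-labelled cells, against 7354 and 5613 units in irradiated and unirradiated WT cells. The irradiated WT array was the highest of the 4 and the unirradiated arrays were close together. Over both genotypes Rps27l rose by 0.27 (log2, SE 0.09, limma adjusted p = 0.0268), with 0.14 in p38a-KO-labelled and 0.39 in WT cells. Its 3 probe sets agreed in WT cells, at 0.39, 0.22 and 0.20, but differed in sign in p38a-KO-labelled cells, at 0.14, -0.03 and -0.05. Averaged over these probe sets the effect was 0.15 and no longer passed (limma adjusted p = 0.170). All 3 were lower in irradiated p38a-KO-labelled than in irradiated WT cells, by log2 differences of -0.21, -0.19 and -0.22, a description with no test.

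Rps27 itself was read by a dim probe set, with 71.1 and 112.7 units in irradiated and unirradiated p38a-KO-labelled cells, against 107.8 and 106.6 units in irradiated and unirradiated WT cells. Only the irradiated p38a-KO-labelled array was low. The effect of UVB over both genotypes was -0.32 (limma adjusted p = 0.226), so the members of this paralog pair were not shown to move together or apart.

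Rpl7l1, a paralog of Rpl7 known in human cells for a part in assembly of the large subunit, had the strongest fall of the members by adjusted p. It read 688.9 and 1371 units in irradiated and unirradiated p38a-KO-labelled cells, against 609.6 and 1116 units in irradiated and unirradiated WT cells. Both irradiated arrays lay below both unirradiated ones. Over both genotypes Rpl7l1 fell by 0.93 (log2, SE 0.11, limma adjusted p = 7.6e-05), just short of 2-fold in each genotype, and its other 2 probe sets were lower after UVB too. It also fell after quantile normalization, by 0.30 (limma adjusted p = 0.0364), but not after median centring, where the effect was 0.17 (limma adjusted p = 0.200). Rpl7, its bright relative, read 11635 and 11355 units in p38a-KO-labelled cells after and without UVB, against 11430 and 11717 in WT cells, with an effect of -0.00035 (limma adjusted p = 0.997). The other 2 probe sets of Rpl7 had UVB differences of 0.10 and 0.35 in p38a-KO-labelled cells. In WT cells theirs were -0.05 and 0.25, so the value near 0 describes the kept probe set.

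Rpl12, a protein near the stalk base, read 175.3 and 289.7 units in irradiated and unirradiated p38a-KO-labelled cells, against 155.8 and 260.2 in WT cells. Rps25, a small-subunit protein known for its need in translation from some viral internal ribosome entry sites, read 613.6 and 890.9 units in p38a-KO-labelled cells after and without UVB, against 617.6 and 899.3 in WT cells. Rpl27a, a large-subunit protein, read 128.1 and 162.4 units in p38a-KO-labelled cells after and without UVB, against 98.9 and 157.7 in WT cells. In each of these 3 genes both irradiated arrays were below both unirradiated ones. All 3 are dim members, and a probe set shared with other symbols averaged 14253 units for Rpl12, 8907 for Rps25 and 11806.5 for Rpl27a. The effects below describe the dim kept probe sets alone, and the median UVB effect of all tested genes was -0.75. Rpl12 fell by 0.73 (SE 0.15, limma adjusted p = 0.00233), Rps25 fell by 0.54 (SE 0.11, limma adjusted p = 0.00218) and Rpl27a fell by 0.51 (SE 0.19, limma adjusted p = 0.0351). All 3 effects turned to above 0 after quantile normalization and after median centring.

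Rpl39, a small protein at the exit tunnel of the large subunit, was the member with the largest UVB difference in p38a-KO-labelled cells and the largest genotype difference after UVB, again on a dim probe set. It read 37.3 and 126.2 units in irradiated and unirradiated p38a-KO-labelled cells, against 154.4 and 163.2 units in irradiated and unirradiated WT cells. The irradiated p38a-KO-labelled array alone set it apart, and this was the 1 member 2-fold lower after UVB. Rpl39 fell by 0.92 over both genotypes (SE 0.34, limma adjusted p = 0.0349), but its UVB differences were -1.76 in p38a-KO-labelled cells and -0.08 in WT cells. The effect over both genotypes turned to 0.14 after quantile normalization and 0.18 after median centring (limma adjusted p = 0.767 and 0.654).

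Rpl39l, its paralog known from male germ cells, read 69.2 and 102.6 units in irradiated and unirradiated p38a-KO-labelled cells, against 58.1 and 42.1 units in irradiated and unirradiated WT cells. Its UVB effect of -0.05 did not pass as deposited (limma adjusted p = 0.876). Rpl22l1 and Rpl22, paralogs of which Rpl22 is known in mouse to repress the other's mRNA, were both bright. Rpl22l1 read 7528 and 7208 units in p38a-KO-labelled cells after and without UVB, against 7215 and 7585 in WT cells, and Rpl22 read 12473 and 12406 units in p38a-KO-labelled cells, against 12125 and 12677 in WT cells. Their UVB effects were -0.0048 and -0.03 (limma adjusted p = 0.962 and 0.755).

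Rps4x, the X-linked gene of a small-subunit protein, read 15107 and 15057 units in irradiated and unirradiated p38a-KO-labelled cells, against 13075 and 15728 units in irradiated and unirradiated WT cells. The irradiated WT array was the low one. Rps4l, its paralog, read 1238 and 1798 units in p38a-KO-labelled cells after and without UVB, against 1654 and 1730 in WT cells, and here the irradiated p38a-KO-labelled array was low. The UVB effect of Rps4l was -0.30 (limma adjusted p = 0.0562) and that of Rps4x -0.13 (limma adjusted p = 0.207). Rpl37, on its dim probe set, read 1563 and 1714 units in p38a-KO-labelled cells after and without UVB, against 1779 and 1287 in WT cells, with an effect of 0.17 (limma adjusted p = 0.304). Rps14 read 11892 and 11817 units in p38a-KO-labelled cells after and without UVB, against 12616 and 11786 in WT cells, with an effect of 0.05 (limma adjusted p = 0.554).

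**Figure D4:**
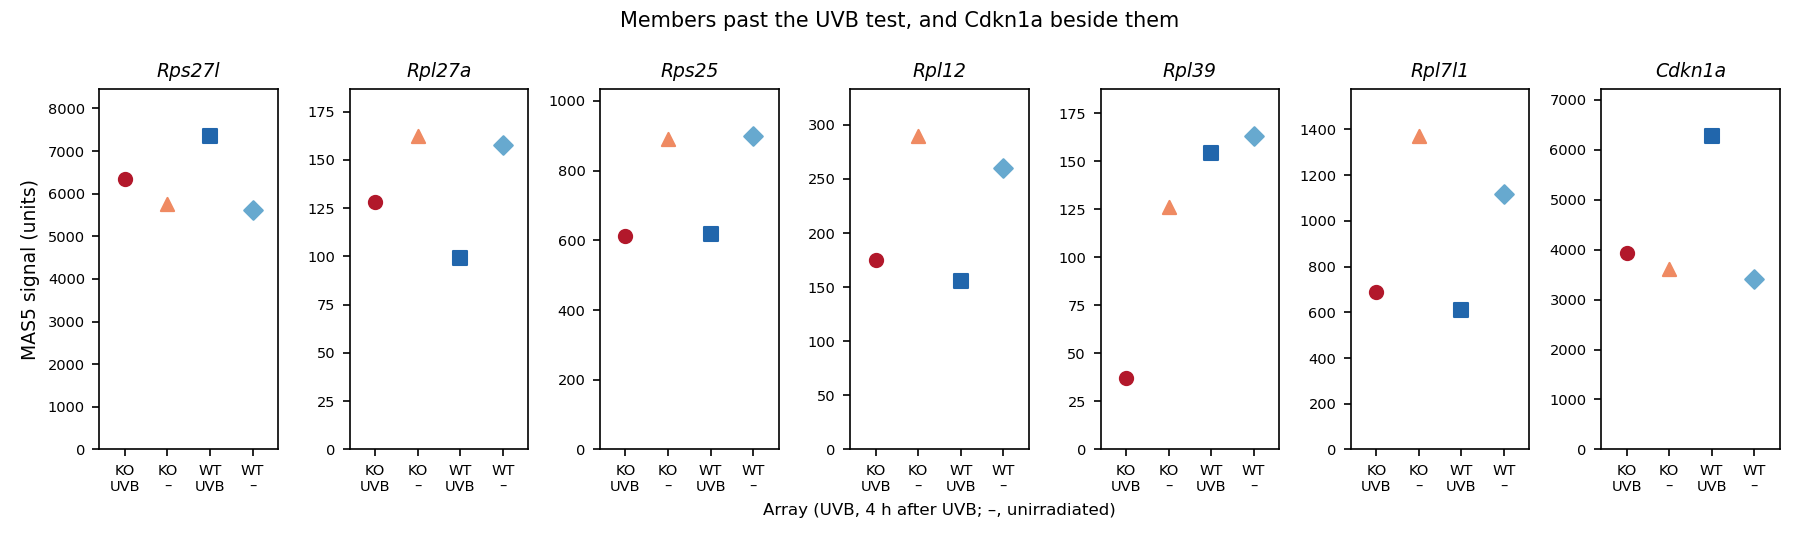
MAS5 signal on a linear axis from 0 for the 6 ribosomal protein genes past the UVB test and for Cdkn1a, each on its own scale, on the arrays of p38a-KO-labelled cells with and without UVB and WT cells with and without UVB. Rps27l and Cdkn1a are highest on the irradiated WT array, and Rpl39 is low on the irradiated p38a-KO-labelled array alone.

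Probe sets of the same gene disagreed most widely where some of them were dim. The 48 members had 104 probe sets, and 24 members had more than 1. For Rps9 the probe sets above the floor spanned 1.94 in their UVB difference in p38a-KO-labelled cells and 1.53 in WT cells, for Rpl41 1.60 and 1.12, and for Rps10 1.21 and 0.83. For Rpl7, with all 3 above 5000 units, they spanned 0.32 and 0.30. For Rps3, with probe sets averaging 9365 and 444.4 units, they spanned only 0.02 and 0.09, so a dim probe set did not always widen the span. The 16 member probe sets between the floor and 400 units had medians of -0.62 in p38a-KO-labelled and -0.42 in WT cells, against -0.90 and -0.79 for 17199 probe sets of other kinds in that range. Leaving out probe sets whose IDs end in _x_at, _s_at or _a_at, marks of sequence shared between transcripts, removed the kept probe set of 31 of the 35 bright members. Of the 23 members then tested, 9 fell and 0 rose in the limma test, where 70.4% of the 9791 genes then tested fell and 0.705% rose.

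The second question was whether the genotypes differed. No member passed the limma test of genotype over both conditions, where 0.642% of tested genes were lower and 0.967% higher in p38a-KO-labelled cells, and 3 of 46 members (6.52%) had an unadjusted p under 0.05, as did 17.4% of all tested genes. The count was 0 as well after quantile normalization, where 1.06% of tested genes were lower and 0.558% higher, and after median centring, where 1.51% were lower and 0.793% higher, with 2 and 4 members at an unadjusted p under 0.05, against 1576 of 11296 and 1626 of 11600 tested genes. These 3 were the dim Rpl39, Rpl14 and Rpl39l. Rpl39 differed by -1.21 (limma adjusted p = 0.124), Rpl39l by 0.77 (limma adjusted p = 0.212) and Rpl14 by 0.35 (limma adjusted p = 0.237). Rpl14, a large-subunit protein, read 399.9 units in irradiated p38a-KO-labelled against 333.5 in irradiated WT cells, and 418.0 in unirradiated p38a-KO-labelled against 310.6 in unirradiated WT cells.

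Pairwise, 2-fold differences between the genotypes were few. After UVB 1 of 46 members, Rpl39, was 2-fold lower in p38a-KO-labelled than in WT cells, where 1.47% of tested genes were, and 0 were 2-fold higher, where 1.41% were. Without irradiation 1 member, Rpl39l, was 2-fold higher, where 1.63% of tested genes were, and 0 were 2-fold lower, where 0.729% were. The bright members had a median difference of 0.04 after UVB, with a range of -0.21 to 0.21, and of -0.04 without irradiation, with a range of -0.15 to 0.08. All tested genes had medians of 0.05 and 0.16. After UVB 26 of the 35 bright members read higher in p38a-KO-labelled cells, and without irradiation 8 did. These directions depend on the scaling: with quantile normalization 14 and 19 of 35 were higher, and with median centring 10 and 0.

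**Figure D5:**
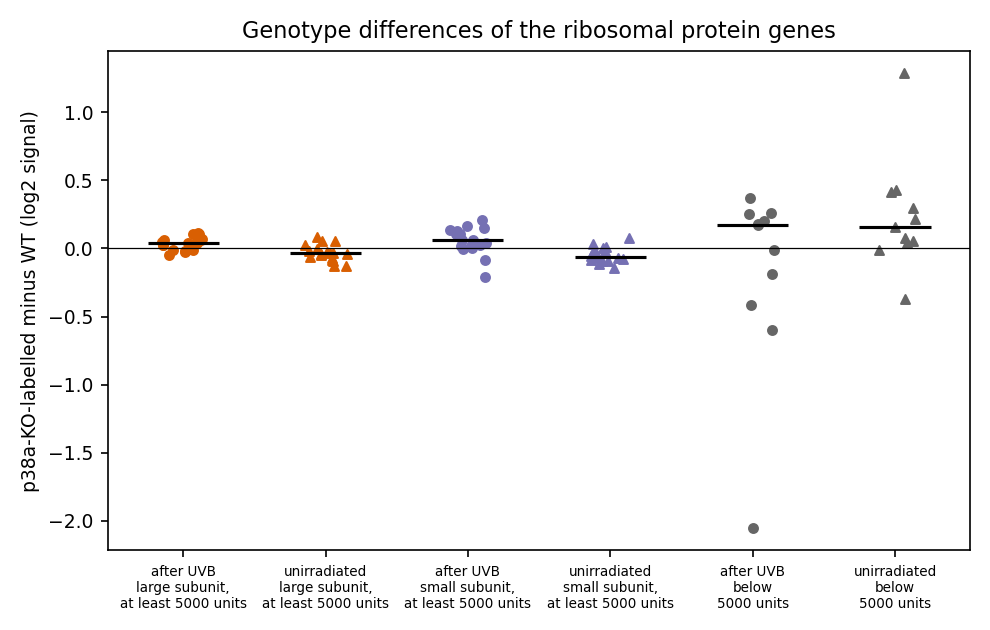
p38a-KO-labelled minus WT log2 signal of the 46 tested ribosomal protein genes, after UVB (circles) and unirradiated (triangles), for bright large-subunit, bright small-subunit and dim genes; black lines are medians. Bright genes stay within -0.21 and 0.21, and only the dim genes Rpl39, at -2.05 after UVB, and Rpl39l, at 1.28 without irradiation, pass 2-fold.

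The difference between the 2 UVB responses could not be tested, because with 1 array a group it leaves no residual. As deposited, without further scaling, 21 of the 35 bright members read higher after UVB in p38a-KO-labelled cells and lower in WT cells, and 1 the other way round, while 11 were lower and 2 higher in both. Of the 156 other bright genes, which were not matched to the members for signal, 32 were higher in p38a-KO-labelled and lower in WT cells. This pattern of signs depends on the scaling: with quantile normalization 20 of the 35 were higher after UVB in p38a-KO-labelled and 24 in WT cells, and with median centring all 35 were higher in both.

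Genes that work beside the ribosomal proteins were read from lists. Of 4 ribosomal protein genes outside the symbol pattern 2 were measured, Fau and Rps3a1, and neither passed a test as deposited. After median centring both rose after UVB in the limma test. Fau, whose product carries a ribosomal protein fused to a ubiquitin-like domain, read 9321 and 9184 units in irradiated and unirradiated p38a-KO-labelled cells, against 9235 and 9752 in WT cells. Rps3a1 read 14178 and 13428 units in p38a-KO-labelled cells after and without UVB, against 13458 and 14260 in WT cells. Among 13 measured translation elongation and other TOP genes, 4 fell and 0 rose after UVB, where 69.4% of all tested genes fell, with median differences of -0.15 in p38a-KO-labelled and -0.17 in WT cells. Hnrnpa1, an RNA-binding protein, fell by 0.89 (limma adjusted p = 8.16e-05), the initiation factor gene Eif4b fell by 0.78 and Npm1, which encodes a nucleolar chaperone of ribosome assembly, fell by 0.27. After median centring 0 of the 13 fell and 12 rose, and after quantile normalization 3 fell and 0 rose.

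Of 30 ribosome assembly and RNA polymerase I genes 26 fell and 0 rose as deposited, in the test in which 69.4% of all genes fell, with medians of -0.97 in p38a-KO-labelled and -0.63 in WT cells. Polr1b, a core subunit of RNA polymerase I, read 126.1 and 567.8 units in irradiated and unirradiated p38a-KO-labelled cells, against 132.0 and 455.7 in WT cells, and fell by 1.98 (SE 0.16, limma adjusted p = 9.94e-06). With quantile normalization 11 of the 30 fell and 3 rose, and with median centring 2 fell and 13 rose. The lists differ in signal, with a median over genes of 578.2 units for these 30 genes, and no test of the difference between the lists was made.

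Regulators of TOP mRNAs and of S6 phosphorylation had 12 of 14 falling and 0 rising as deposited, against 69.4% of all tested genes falling. Eif4ebp2, a translational repressor regulated by mTOR, read 214.2 and 804.3 units in irradiated and unirradiated p38a-KO-labelled cells, against 192.0 and 702.5 in WT cells, and fell by 1.89. Larp4, an RNA-binding protein of the La family, fell by 1.54 and Rptor, a subunit of mTOR complex 1, fell by 1.23. With quantile normalization 5 of the 14 fell and 2 rose, and with centring 2 fell and 3 rose.

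Of the 3 tested genes of the axis from ribosomal proteins to p53, Cdkn1a rose and Mdm2 and Mdm4 fell. Cdkn1a, a p53 target that arrests the cell cycle, read 3937 and 3614 units in irradiated and unirradiated p38a-KO-labelled cells, against 6276 and 3418 units in irradiated and unirradiated WT cells, and rose by 0.50 (SE 0.15, limma adjusted p = 0.0150). As for Rps27l, the irradiated WT array was the highest of the 4, whereas for Mdm2 and Mdm4 the unirradiated WT array was the highest. Mdm2, which encodes the ubiquitin ligase of p53, read 283.3 and 829.0 units in p38a-KO-labelled cells after and without UVB, against 467.4 and 973.6 in WT cells, and fell by 1.30. Mdm4, its relative, fell by 1.35. With quantile normalization 1 of the 3, Mdm2, still fell and 1, Cdkn1a, rose, and with centring 1 of the 3 rose and 0 fell.

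Mitochondrial ribosomal proteins, the other set of ribosomal proteins in the cell, were also read. Of 76 such genes 51 fell and 0 rose as deposited, a share close to the 69.4% of all tested genes that fell, and the medians were -0.50 in p38a-KO-labelled and -0.36 in WT cells. Mrpl50 of the large mitochondrial subunit read 157.5 and 507.3 units in irradiated and unirradiated p38a-KO-labelled cells, against 139.2 and 437.8 in WT cells, and fell by 1.67. With quantile normalization 7 of the 76 fell and 35 rose, and with median centring 2 fell and 58 rose, so the direction of this list depends on the scaling. The median signal of the 76 was 693.0 units, far below that of the bright cytosolic members, and no test of the difference between the lists was made.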

How the data were processed

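RNA of 4 keratinocyte cultures was labelled with biotin from 0.2 ug total RNA by a 3' in vitro transcription kit, per the labels' protocols. MAS5 is the tool named by the submitters' processing notes, and the authors deposited 1 linear signal intensity for each probe set. Its version and scaling target are not stated there. From these 45101 probe sets, 64 of them controls, genes were named through the platform annotation. Each gene with exactly 1 symbol took its brightest probe set, and values below the floor (24.9 units) were raised to it before log2. limma 3.58.1 in R 4.3.3 fitted irradiation and genotype to the 11379 genes with mean signal at the floor or above. It used an intensity trend, 8.13 prior degrees of freedom and Benjamini-Hochberg adjustment at 0.05. A trial run used simulated data in which few genes changed, as many up as down, whereas most genes fell on these arrays. That run therefore does not check the test under the conditions of these data. Pairwise calls used 2-fold. Groups came from the titles. Named members are the extremes of each effect, paralogs, members with known roles and members past the test; other lists name at most 3 genes with the largest effects. Members and lists were chosen with earlier results of these data known. Alternatives covered scaling, floor, fold threshold, probe set choice and the limma model. Tables used Python 3.11.15.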

Additional observations from a re-analysis of the deposited data

Results flagged for a closer look

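For 11 named members the UVB difference had opposite signs in the p38a-KO-labelled and the WT array pair. With 1 array a group the difference of the responses, given here as p38a-KO-labelled minus WT on the log2 scale, was not tested. Among bright members it was 0.27 for Rps4x, 0.21 for Rps3, 0.17 for Rpsa, 0.13 for Rpl22l1, 0.13 for Rplp0, 0.072 for Rpl22 and 0.071 for Rpl7, each higher after UVB in p38a-KO-labelled cells and lower in WT cells. Among dim members it was -1.03 for Rpl39l, -0.68 for Rps27, -0.60 for Rpl37 and -0.17 for Rpl14, each lower after UVB in p38a-KO-labelled cells and higher in WT cells. The largest difference of responses among all members, in Rpl39, was -1.68, with the same sign in both genotypes.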

How the results depend on the processing

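No paired analysis was possible because each group has 1 array. The members' median UVB differences were 0.00 in p38a-KO-labelled and -0.06 in WT cells. The WT median was 0.053 with quantile normalization; with median centring the medians were 1.13 and 1.005, and the genotype median without irradiation -0.19. Without shared-sequence probe sets the p38a-KO-labelled median was -0.51.

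Members 2-fold lower after UVB in p38a-KO-labelled cells numbered 0 with quantile normalization, centring or the 75th percentile floor, 3 without shared-sequence probe sets and 4 at 1.5-fold. In WT cells they numbered 1 without shared-sequence probe sets and 3 at 1.5-fold. Members 2-fold higher numbered 2 in WT with quantile normalization, and 37 in p38a-KO-labelled and 24 in WT cells with centring. Those 2-fold different between genotypes after UVB numbered 0 with the 75th percentile floor, 3 with the mean over probe sets and 2 at 1.5-fold; without irradiation there were 0 with that floor and 0 at 3-fold.

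In limma 1 member fell and 7 rose with quantile normalization, 0 and 43 with centring, 10 and 0 with the mean over probe sets, 9 and 0 without shared-sequence probe sets, and 3 and 0 with only the tested factor. Without the intensity trend 0 rose, and with the 25th percentile floor 1 member was lower in p38a-KO-labelled cells. Effects that turned were, with quantile normalization, Rpl12 0.28, Rpl27a 0.57, Rpl39 0.14 and Rps25 0.14, and with centring, Rpl12 0.37, Rpl27a 0.59, Rpl39 0.18, Rpl7l1 0.17 and Rps25 0.56; both rescale whole arrays. Rps27l did not pass without the intensity trend (limma adjusted p = 0.186) or with only the tested factor (limma adjusted p = 0.0662).

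Chosen after the data were seen, adding probe sets that name other symbols gave 0 members 2-fold lower after UVB in p38a-KO-labelled cells and 0 differing 2-fold between genotypes after UVB. Bright members alone gave 0 for both, 0 differing without irradiation and 0 falling in limma.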
